A study of Caenorhabditis elegans with 30 samples.

Results

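The nuclear hormone receptor family of Caenorhabditis elegans was followed here through every group of a bulk RNA-seq series that crossed loss of SET-26 or of HCF-1, both chromatin regulators, with RNAi of the histone deacetylase gene hda-1. Members were the genes whose symbol is nhr- followed by a number, without nhr-49 and nhr-80, which gave 267 of the 46934 genes in the table. A member is described below where 2 or more of the 30 libraries held over 10 reads of it, which 188 members met. The other 79 did not reach that level, and 10 of them had no read in any library. At the boundary, 4 members had more than 10 reads in exactly 2 libraries, with 17 to 30 reads in their best library, and 12 members had more than 10 in only 1 library, with 11 to 28 reads in it. In contrast, 128 members had more than 10 reads in all 30 libraries.

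All worms carried glp-1(e2141), a temperature-sensitive allele that leaves adults without a germline when they are raised at 25 °C, as they were here, so the levels are those of somatic tissue from whole hermaphrodites. The control was glp-1(e2141) alone, and the mutants were glp-1(e2141);set-26(tm2467), called set-26(-), and glp-1(e2141);hcf-1(pk924), called hcf-1(-), each 1 allele in 1 strain. Worms of each genotype were sampled on day 1 of adulthood on bacteria carrying the L4440 empty vector (EV), then kept on EV or moved to hda-1 RNAi bacteria and sampled again on days 3 and 12, giving 15 groups of 2 libraries. Libraries were made from pooled worms with a kit that reads the 3′ end of each mRNA, so levels are given in reads per 1000000 reads (CPM), scaled over all 30 libraries and not divided by gene length.

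Nuclear hormone receptors are transcription factors with a zinc-finger DNA-binding domain and, in most members, a ligand-binding domain through which small lipophilic molecules can switch them. In nematodes the family has expanded greatly, largely from an ancestor related to the HNF4 receptors of vertebrates, and many of its members lie in clusters on chromosome V. A minority have clear relatives outside nematodes. Members with a known role in worms act in fat storage, propionate breakdown, dietary sensing, detoxification and moulting, while most have no described function.

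The 30 libraries held 6045498 to 17748121 reads assigned to genes, with a median of 8323966, and 3 reads corresponded to 0.127 to 0.581 CPM. The targeted genes were looked at first. hcf-1 was lower in the libraries labelled hcf-1(-) on day 1, with 3.35 and 1.94 CPM against 11.6 and 12.7 CPM in the control. set-26 showed no such drop: day 1 libraries that carry the set-26(-) label held 12.1 and 15.1 CPM of it, those of the control 12.6 and 10.8 CPM, and whether its 3′ reads lie outside the tm2467 deletion was not tested. Reads assigned to hda-1 were higher under the hda-1 RNAi label, at 515 to 1917 CPM on day 12 against 21.7 to 35.8 CPM on EV. The RNAi bacteria fed to these worms make double-stranded RNA of hda-1. Whether these reads came from that RNA or from the worms' own mRNA was not tested. The direction of every comparison with those libraries is therefore the direction between labels, and a lower hda-1 mRNA level was not seen in these reads. The study also measured hda-1 RNA and protein by other assays, which were not analysed here. Of the 12 germline markers, him-3, pgl-3, pgl-1, egg-1, cbd-1, oma-1 and gld-1 had their highest library at 0.467 to 2.34 CPM, oma-2, rme-2 and puf-5 at 6.31, 8.28 and 10.6 CPM, and syp-1 and glh-1 at 35.2 and 37.99 CPM, and the 12 summed to 19.7 to 71.0 CPM. Marker sums for somatic tissues changed with age, from 5884 to 12899 CPM on day 1 to 320 to 382 CPM on day 12 (EV) for 5 hypodermal markers, from 6097 to 9149 to 642 to 1135 CPM for 4 muscle markers, from 1095 to 2115 to 292 to 661 CPM for 4 intestinal markers, and from 441 to 565 to 710 to 787 CPM for 6 neuronal markers. The hypodermal sum rested mainly on col-19, at 12.3 to 12134 CPM over all libraries, and on sca-1, at 236 to 773 CPM. The highest libraries of dpy-7, elt-3 and rol-6 held 17.3, 55.3 and 72.8 CPM, so the hypodermal sum does not stand for the tissue as a whole.

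Of the 267 members, 167 lie on chromosome V, and 121 of these were among the 188 expressed members. The 22 members on chromosome I stood apart, since only 5 of them were expressed (22.7%), against 77.02% of all protein-coding genes of that chromosome, whereas the share on chromosome V was 72.5% against 63.1%. After scaling, the summed level of the expressed members lay between 2061 CPM in a day 12 control library labelled hda-1 RNAi and 2671 CPM in a day 12 set-26(-) library on EV. The scaling factors ran from 0.639 in a day 1 control library to 1.34 in a day 12 hcf-1(-) library labelled hda-1 RNAi. The narrow range therefore holds for the scaled levels and not for the sum per assigned read. In day 1 controls the median member had 7.20 CPM, 8 members had a mean over 50 CPM, 70 had 10 to 50 CPM, 82 had 1 to 10 CPM and 28 were under 1 CPM. The 10 most abundant members made up 31.3% of the family's reads.

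nhr-55 (165 and 157 CPM) and nhr-97 (114.8 and 168 CPM) led the order in day 1 controls. They were followed by nhr-8 (97.5 and 79.8 CPM), nhr-88 (77.4 and 84.8 CPM) and nhr-31 (72.0 and 56.8 CPM). nhr-14 (44.3 and 67.9 CPM), nhr-40 (49.7 and 55.7 CPM), nhr-173 (46.6 and 58.0 CPM), nhr-5 (43.2 and 56.1 CPM) and nhr-100 (53.996 and 44.1 CPM) completed the first 10. Within this order each receptor's replicates overlapped those of the next one, except between nhr-97 and nhr-8 and between nhr-88 and nhr-31. nhr-8 is a relative of the vertebrate vitamin D and LXR receptors that acts in cholesterol balance and resistance to toxins, nhr-31 acts in the excretory cell on genes of the vacuolar proton pump, and nhr-14 acts in iron uptake. Some abundant members hardly varied across the 15 groups: the group means of nhr-95 spanned 19.98 to 27.99 CPM, a 1.40-fold range, and those of nhr-97 a 1.52-fold range. In contrast, nhr-68 varied 24.7-fold between its highest and lowest group means, nhr-61 15.3-fold, nhr-55 14.4-fold and nhr-115 9.14-fold. nhr-55, the most abundant member in day 1 controls, was thus also among the most variable.

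Genes were compared with edgeR's quasi-likelihood test, in which a gene was called when its Benjamini-Hochberg adjusted p over all genes tested was under 0.05, and fold changes are given on the log2 scale with their standard error (SE) and 2 libraries per group. Over 16 comparisons 86 of the 188 members were called at least 1 time and 102 never were, while 14 were called in at least 4 comparisons and nhr-57 in 8. The matching shares over all genes were not computed for these totals, so they are not read as a trait of the family. For single comparisons, the plot of shares called sets each count beside the same share over all genes. The study describes its replicates as biological, while the labels number them without saying that they are separate cultures, so p-values measure the spread between these samples, and with 2 of them many calls rested on single libraries. Leaving out 1 library leaves a group with 1 sample, which is then assumed to vary like the other group.

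**Figure D1:**
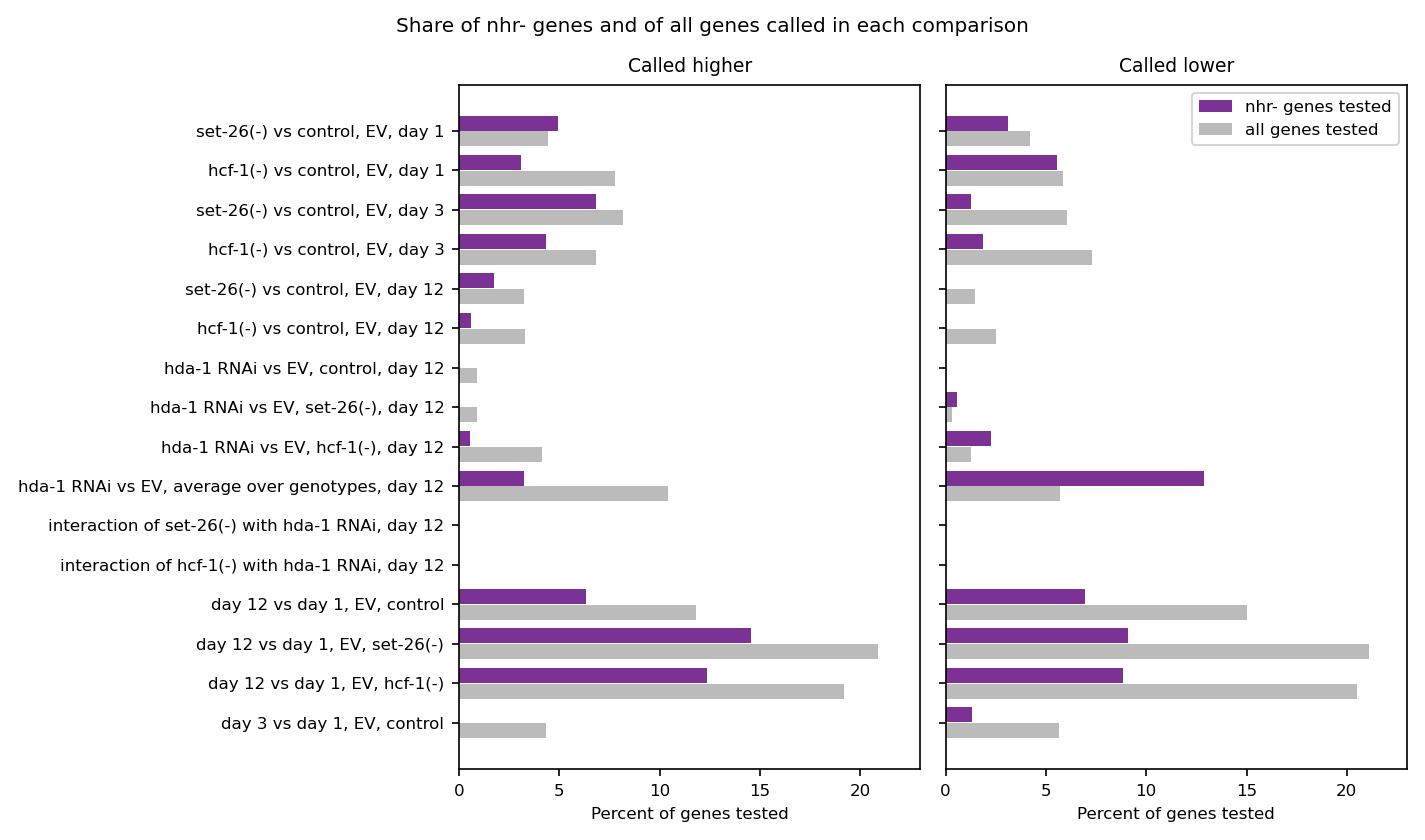
Share of tested genes called higher (one panel) or lower (the other panel) in each of 16 comparisons, in percent on the horizontal axes, for the nhr- genes and for all genes. The family's share lies below that of all genes in most comparisons, for example 6.33% against 11.8% higher in control worms between day 1 and day 12, and above it for lower calls in the average over genotypes of the libraries labelled hda-1 RNAi, at 12.9% against 5.71%.

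Which receptors differ in the mutants at the start of adulthood was asked first. On day 1, 8 of the 162 members tested were higher in set-26(-) than in the control and 5 were lower, where 4.45% and 4.19% of all genes were called in those directions. In hcf-1(-), 5 members were higher and 9 lower, where the background was 7.76% and 5.84%. The family's median change was −0.11 in set-26(-), against 0.03 over all genes, and 0.01 in hcf-1(-), against 0.04. The mutants share the control libraries, so their values are given side by side and their likeness is not a separate result. nhr-55, nhr-63, nhr-99 and nhr-173 were called lower in both mutants, and nhr-7, nhr-115, nhr-193 and nhr-210 were called higher in both.

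nhr-55 (WBGene00003645) had 165 and 157 CPM in day 1 controls, 10.7 and 16.1 CPM in set-26(-) and 15.2 and 14.6 CPM in hcf-1(-). Both mutants lay far below the control with no overlap. The log2 fold change was −3.58 ± 0.26 (SE) in set-26(-) (edgeR adjusted p = 0.000468) and −3.39 ± 0.25 in hcf-1(-) (edgeR adjusted p = 0.00033), and both calls held without any 1 library. nhr-55 lies on chromosome V at 478162 to 480693 of WBcel235, on the plus strand, and its neighbour 1006 bases upstream on the same strand is nhr-99 (474778 to 477155). nhr-99 had 19.9 and 24.7 CPM in the control, 0.552 and 2.01 CPM in set-26(-) and 5.30 and 1.81 CPM in hcf-1(-). It was lower in both mutants without overlap too, with changes of −4.06 ± 0.64 in set-26(-) (edgeR adjusted p = 0.00904) and −2.62 ± 0.56 in hcf-1(-) (edgeR adjusted p = 0.0214). Without set-26(-) replicate 1 the adjusted p of nhr-99 was 0.0760, and without hcf-1(-) replicate 2 it was 0.119.

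The other members lower in both mutants were nhr-63 and nhr-173, for which no role is given here. nhr-63 had 13.5 and 23.6 CPM in the control, 4.60 and 5.87 CPM in set-26(-) and 5.9995 and 5.32 CPM in hcf-1(-), changes of −1.81 ± 0.37 (edgeR adjusted p = 0.0237) and −1.67 ± 0.36 (edgeR adjusted p = 0.0222). nhr-173, on the X chromosome, had 46.6 and 58.0 CPM in the control, 23.6 and 29.2 CPM in set-26(-) and 16.05 and 16.8 CPM in hcf-1(-), changes of −0.98 ± 0.23 (edgeR adjusted p = 0.0375) and −1.63 ± 0.23 (edgeR adjusted p = 0.00486). In both genes every mutant library lay below both control libraries. The nhr-63 calls were lost without control replicate 2 or either mutant library, with adjusted p between 0.0653 and 0.167 in set-26(-) and between 0.0729 and 0.142 in hcf-1(-). The nhr-173 calls were lost without either mutant library, and in set-26(-) also without control replicate 2, with adjusted p of 0.0645 to 0.209 in set-26(-) and 0.0503 to 0.0627 in hcf-1(-).

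nhr-115 rose most among the members called higher in both mutants, from 2.32 and 2.66 CPM in the control to 23.9 and 18.5 CPM in set-26(-) and 13.1 and 11.4 CPM in hcf-1(-). The changes were 3.08 ± 0.33 (edgeR adjusted p = 0.00184) and 2.33 ± 0.33 (edgeR adjusted p = 0.00469), and both held without any 1 library. nhr-115 (2292540 to 2294800 on chromosome V) is followed 76 bases downstream on the same strand by nhr-226 (2294877 to 2296977). nhr-226 had 2.71 and 1.90 CPM in the control, 9.75 and 11.0 CPM in set-26(-) and 3.49 and 10.6 CPM in hcf-1(-), and it was not called in set-26(-), where the change was 2.16 (edgeR adjusted p = 0.0561). nhr-210 had 8.90 and 5.32 CPM in the control, 34.6 and 27.2 CPM in set-26(-) and 37.7 and 28.7 CPM in hcf-1(-), changes of 2.12 ± 0.33 (edgeR adjusted p = 0.00869) and 2.26 ± 0.33 (edgeR adjusted p = 0.00541). All mutant libraries of nhr-210 lay above the control libraries, yet its calls were lost without replicate 1 of set-26(-) (adjusted p = 0.0678) or of hcf-1(-) (adjusted p = 0.0538).

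nhr-193 and nhr-7 rose less. nhr-193 went from 3.48 and 5.32 CPM in the control to 14.4 and 17.8 CPM in set-26(-) (1.87 ± 0.34, edgeR adjusted p = 0.017) and 12.1 and 9.56 CPM in hcf-1(-) (1.33 ± 0.34, edgeR adjusted p = 0.0395). nhr-7 went from 11.8 and 11.2 CPM to 35.3 and 25.97 CPM (1.42 ± 0.29, edgeR adjusted p = 0.0255) and 27.3 and 19.2 CPM (1.05 ± 0.29, edgeR adjusted p = 0.0489). No mutant library overlapped a control library in either gene. nhr-178 (1.82 ± 0.39, edgeR adjusted p = 0.0285) was called higher and nhr-168 (−2.38 ± 0.59, edgeR adjusted p = 0.0455) lower in set-26(-), and nhr-213 (1.51 ± 0.32, edgeR adjusted p = 0.0214) higher and nhr-162 (−2.83 ± 0.60, edgeR adjusted p = 0.0213) lower in hcf-1(-). Beyond nhr-55 and nhr-115, each of the other 11 calls in set-26(-) and 12 calls in hcf-1(-) was lost without at least 1 library, at adjusted p of 0.0512 to 0.238 and 0.0503 to 0.331. Each of the 4 libraries of either comparison ended at least 1 call.

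Tissue markers differed on day 1 as well. In hcf-1(-), 5 of the 12 germline markers were tested and syp-1 was higher. Of 5 hypodermal markers dpy-7 and rol-6 were higher there, and vha-6 was lower among 4 intestinal markers. Of 4 muscle markers, 1 was higher in hcf-1(-) and 1 in set-26(-). No germline, hypodermal or intestinal marker was called in set-26(-), and none of 6 neuronal markers in either mutant. The larval collagen genes dpy-7 (0.774 and 0 CPM in the control against 17.3 and 7.26 CPM) and rol-6 (0 and 1.14 CPM against 72.8 and 38.7 CPM) and the synaptonemal complex gene syp-1 (2.32 and 4.56 CPM against 32.6 and 35.2 CPM) were called higher in hcf-1(-). rol-6 had 6.44 and 1.24 CPM in set-26(-). The 12 germline markers summed to 19.7 and 21.7 CPM in the control, 27.1 and 21.3 CPM in set-26(-) and 59.3 and 59.6 CPM in hcf-1(-). The 5 hypodermal markers summed to 12360 and 8466 CPM in the control and 7902 and 5884 CPM in hcf-1(-), with a median change of −0.24. On day 1 that sum was mostly col-19. Their part in the results for the receptors was not tested. In bulk worms, fewer cells of a type and less RNA per cell cannot be told apart for any change given here.

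**Figure D2:**
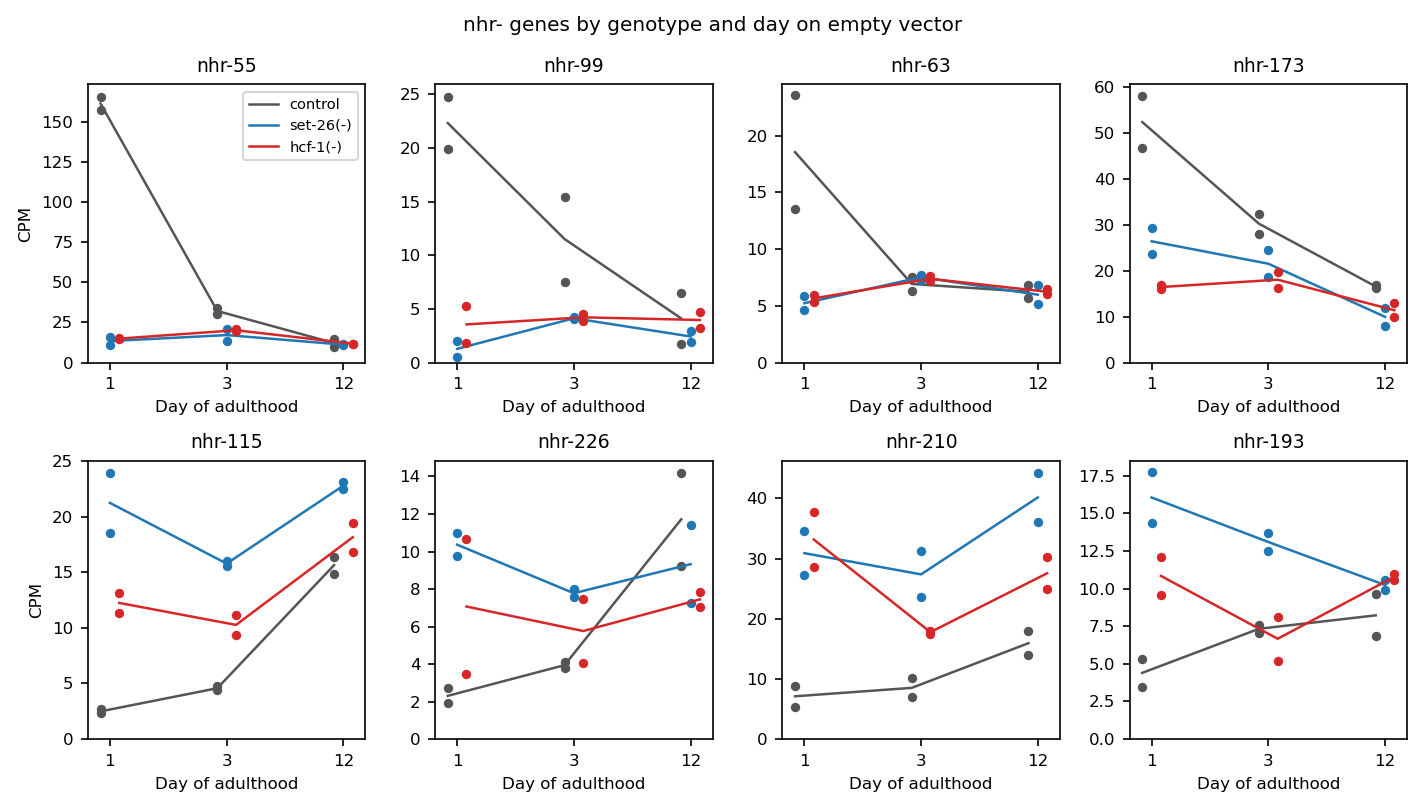
CPM (vertical axes, starting at 0) of nhr-55, nhr-99, nhr-63, nhr-173, nhr-115, nhr-226, nhr-210 and nhr-193 on days 1, 3 and 12 of adulthood (horizontal axes, days drawn at equal distances) on EV, with 1 point per library and lines through the means of the 3 genotypes. The control lines of nhr-55 and nhr-99 start above both mutants on day 1 and come down towards them by day 12, while that of nhr-115 starts below and comes up, from 2.32 and 2.66 CPM to 14.9 and 16.4 CPM.

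On day 3, 11 of the 161 members tested were higher in set-26(-) and 2 were lower, where 8.17% and 6.04% of all genes were called in those directions. In hcf-1(-), 7 were higher and 3 lower, against 6.81% and 7.29%. In set-26(-), 47 of the 161 members had a change below 0 whether called or not, and the family's median was 0.18 against 0.02 over all genes. In hcf-1(-) the median was 0.05, the same as over all genes. nhr-3, nhr-68, nhr-114, nhr-115 and nhr-210 were called higher in both mutants and nhr-99 lower in both.

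nhr-68 and nhr-114, both of chromosome V, showed the changes with the smallest adjusted p of the family in set-26(-) on day 3. NHR-68 acts with NHR-10 to switch on the propionate shunt, the set of enzymes that breaks down propionate when the vitamin B12-dependent route is short of its cofactor. nhr-68 (WBGene00003658) had 15.8 and 11.0 CPM in day 3 controls, 43.5 and 48.6 CPM in set-26(-) and 23.2 and 34.2 CPM in hcf-1(-). The changes were 1.80 ± 0.24 (edgeR adjusted p = 4.92e-05) and 1.11 ± 0.24 (edgeR adjusted p = 0.00467). All 4 mutant libraries lay above the controls, and the hcf-1(-) call was lost without control replicate 2 (adjusted p = 0.0918). On day 1 the control had 28.6 and 27.9 CPM, set-26(-) 41.6 and 43.6 CPM and hcf-1(-) 34.6 and 50.5 CPM, which were not called (edgeR adjusted p = 0.172 and 0.126). nhr-10, its partner, was called in none of the 16 comparisons and had 29.8 and 38.2 CPM in day 1 controls.

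nhr-114 (WBGene00003704), which is needed for fertility on some bacterial diets and acts in the methionine and S-adenosylmethionine cycle, had 6.48 and 3.46 CPM in day 3 controls, 23.7 and 22.8 CPM in set-26(-) and 11.8 and 11.9 CPM in hcf-1(-). The changes were 2.24 ± 0.29 (edgeR adjusted p = 3.53e-05) and 1.26 ± 0.30 (edgeR adjusted p = 0.00823), again with no overlap. The hcf-1(-) call of nhr-114 was lost without control replicate 2 (adjusted p = 0.125). In libraries labelled hda-1 RNAi on day 3, for which no test was run, nhr-114 had 6.58 and 5.20 CPM in the control, 20.6 and 17.9 CPM in set-26(-) and 10.03 and 10.2 CPM in hcf-1(-). nhr-68 had 10.7 and 14.7, 36.1 and 46.5, and 13.2 and 25.9 CPM in the same libraries. The control was lowest and set-26(-) highest for nhr-114 there too, while 1 hcf-1(-) library of nhr-68 fell within the control range.

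Genes of the propionate shunt, listed as targets of NHR-10 and NHR-68, were higher on day 3 as well. acdh-1, the acyl-CoA dehydrogenase of the shunt, had 4.26 and 2.83 CPM in the control, 2235 and 1957 CPM in set-26(-) and 531 and 561 CPM in hcf-1(-), changes of 9.21 ± 0.26 (edgeR adjusted p = 1.69e-13) and 7.26 ± 0.24 (edgeR adjusted p = 3.82e-12). On day 1 the same gene had 754 and 290 CPM in the control, 1459 and 1754 CPM in set-26(-) and 1174 and 1293 CPM in hcf-1(-). It was called higher in set-26(-) on day 1 (1.62 ± 0.41, edgeR adjusted p = 0.0474) and on day 12 (3.62 ± 0.70, edgeR adjusted p = 0.0203), when 13.9 and 7.35 CPM stood against 1.19 and 0.410 CPM. Both calls were lost without control replicate 2 or either set-26(-) library, at adjusted p of 0.0520 to 0.167 on day 1 and 0.0509 to 0.128 on day 12. The control level of acdh-1 was lower on day 3 than on day 1 (−7.19 ± 0.60, edgeR adjusted p = 0.00438), a call lost without day 3 replicate 2 (adjusted p = 0.0577). The difference between that change and the change in the mutant was 7.59 ± 0.73 for set-26(-) (edgeR adjusted p = 0.000103) and 6.02 ± 0.71 for hcf-1(-) (edgeR adjusted p = 0.00123), in a test added after the data had been seen. hphd-1 rose by 4.21 and 2.08, hach-1 by 3.46 and 2.14 and ech-6 by 3.70 and 1.92 in set-26(-) and hcf-1(-), and alh-8 rose by 0.88 ± 0.16 in set-26(-). Of the 9 listed target genes of the family, 5 were higher and 2 lower in set-26(-) on day 3, against 8.17% and 6.04% of all genes. In hcf-1(-), 4 were higher and 3 lower, against 6.81% and 7.29%. The 2 lower in set-26(-), irg-4 and irg-5, are immune genes driven by NHR-86, whose own mRNA was not called in any comparison between genotypes. irg-5 changed by −2.06 ± 0.19 and irg-4 by −1.81 ± 0.21 in set-26(-), and by −1.86 ± 0.19 and −1.95 ± 0.21 in hcf-1(-).

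**Figure D3:**
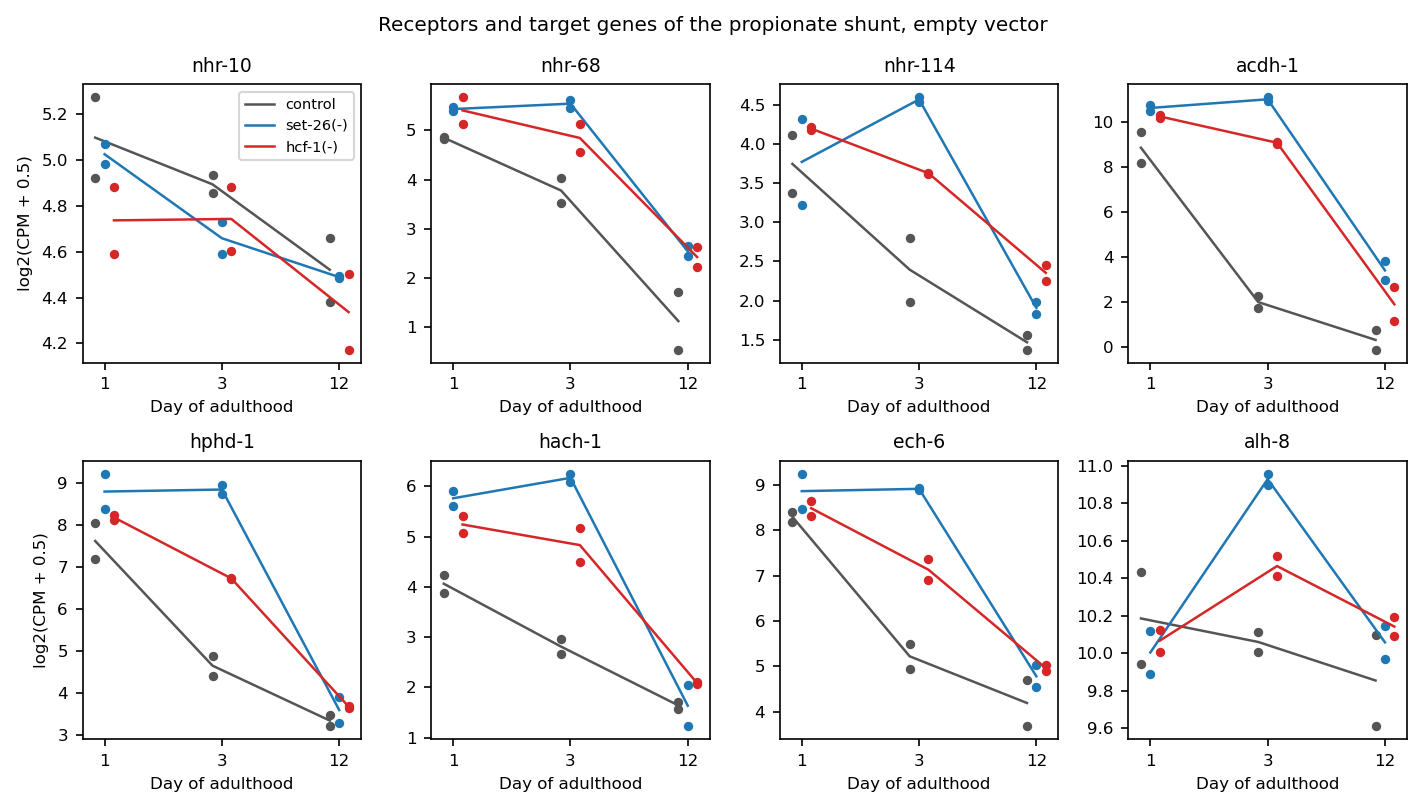
Levels as log2(CPM + 0.5) on the vertical axes of nhr-10, nhr-68, nhr-114 and the propionate shunt genes acdh-1, hphd-1, hach-1, ech-6 and alh-8 on days 1, 3 and 12 (horizontal axes, days drawn at equal distances) on EV, with 1 point per library and lines through the means of the 3 genotypes. On day 3 the control is lowest and set-26(-) highest for nhr-68, nhr-114, acdh-1, hphd-1, hach-1 and ech-6, and the lines come close together again on day 12 for hphd-1 and hach-1, but not for acdh-1, at 13.9 and 7.35 CPM in set-26(-) against 1.19 and 0.410 CPM in the control.

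The members that differed on day 1 were still apart on day 3 in part. nhr-115 had 4.74 and 4.41 CPM in the control, 16.002 and 15.6 CPM in set-26(-) (1.80 ± 0.29, edgeR adjusted p = 0.000274) and 9.38 and 11.1 CPM in hcf-1(-) (1.17 ± 0.29, edgeR adjusted p = 0.0112). nhr-210 had 6.95 and 10.1 CPM, 31.2 and 23.6 CPM (1.69 ± 0.26, edgeR adjusted p = 0.000173) and 18.001 and 17.5 CPM (1.06 ± 0.26, edgeR adjusted p = 0.0101). nhr-55 had come down to 33.8 and 30.4 CPM in the control, against 13.2 and 21.1 CPM in set-26(-) (−0.88 ± 0.24, edgeR adjusted p = 0.0182) and 19.4 and 20.8 CPM in hcf-1(-), which was not called. The mutants stayed above the control for nhr-115 and nhr-210 and below it for nhr-55, without overlap. nhr-99 changed by −1.46 ± 0.37 in set-26(-) (edgeR adjusted p = 0.0125) and −1.44 ± 0.37 in hcf-1(-) (edgeR adjusted p = 0.0128), from 15.5 and 7.56 CPM in the control. nhr-3 rose from 0.632 and 1.10 CPM to 5.15 and 3.27 CPM (2.26 ± 0.60, edgeR adjusted p = 0.0165) and 2.16 and 5.04 CPM (2.06 ± 0.60, edgeR adjusted p = 0.0284), at low read numbers. nhr-101 rose in set-26(-) from 20.8 and 20.9 CPM to 47.3 and 55.2 CPM (1.31 ± 0.20, edgeR adjusted p = 0.000188).

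In hcf-1(-) on day 3, nhr-54 (1.24 ± 0.39, edgeR adjusted p = 0.0384) and nhr-57 (1.14 ± 0.27, edgeR adjusted p = 0.00716) were also called higher, and nhr-173 (−0.74 ± 0.22, edgeR adjusted p = 0.0339) and nhr-105 (−0.63 ± 0.19, edgeR adjusted p = 0.0358) lower. In set-26(-), the calls of nhr-68, nhr-101, nhr-114, nhr-115 and nhr-210 held without any 1 library. The other 8 were lost without at least 1 library, at adjusted p of 0.0503 to 0.361, and for nhr-55 the adjusted p was 0.0568 to 0.267 without control replicate 1, control replicate 2 or set-26(-) replicate 1. All 10 hcf-1(-) calls were lost without at least 1 of the 4 libraries, at adjusted p of 0.0503 to 0.282. For nhr-115 these were the controls, with adjusted p of 0.0645 and 0.0813, and for nhr-210 control replicate 1, with 0.133. Of 4 germline markers tested on day 3, 1 was higher and 1 lower in set-26(-), and 1 was higher and none lower in hcf-1(-). The higher one was syp-1 in set-26(-) (2.89 ± 0.42) and in hcf-1(-) (2.79 ± 0.42). Of 4 muscle markers, 1 was lower in set-26(-), and 1 was higher and 1 lower in hcf-1(-). Of 3 hypodermal markers, 1 was higher in set-26(-) and none was called in hcf-1(-). The part of these markers in the results was not tested. Of 4 intestinal markers tested on day 3, ifb-2 (0.85 ± 0.23, edgeR adjusted p = 0.0168) and vha-6 (0.62 ± 0.18, edgeR adjusted p = 0.0315) were higher in set-26(-) and none was called in hcf-1(-). They summed to 674 and 752 CPM in the control, 1075 and 935 CPM in set-26(-) and 680 and 586 CPM in hcf-1(-), and their part in the day 3 results of set-26(-) was not tested. In 1 fit of all 30 libraries the set-26(-) calls of nhr-3, nhr-8, nhr-18, nhr-65 and nhr-99 were lost, at adjusted p of 0.0671 to 0.229, and those of nhr-18 and nhr-65 also with DESeq2 (adjusted p = 0.0800 and 0.0894). The same fit lost the hcf-1(-) calls of nhr-3 (adjusted p = 0.141), nhr-54 (0.0584), nhr-57 (0.0954), nhr-68 (0.0512), nhr-99 (0.132), nhr-105 (0.201) and nhr-173 (0.0672), and DESeq2 lost that of nhr-54 (0.0825). The hcf-1(-) call of nhr-105 was also lost with no filter.

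On day 12 few members differed between genotypes on EV. Of 172 tested, 3 were higher in set-26(-), where the background was 3.23%, and none was lower, where it was 1.45%. In hcf-1(-), 1 was higher, against 3.3%, and none lower, against 2.51%. Before adjustment, p was under 0.05 for 19 and 25 members. The share of all genes at that unadjusted level was not computed, here or below. DESeq2 called 1 member lower in set-26(-) and none in hcf-1(-), where 363 and 548 of 13608 genes were. nhr-57 was called in both mutants, and nhr-210 and nhr-214 in set-26(-). Of 5 germline markers tested on day 12, 1 was higher and 1 lower in each mutant. In hcf-1(-), 1 of 4 intestinal markers was lower and 1 of 4 muscle markers higher, while none of these was called in set-26(-). No hypodermal or neuronal marker was called in either mutant. The part of these markers in the day 12 results was not tested.

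nhr-57 (WBGene00003647; chromosome V, 4131889 to 4135102), a gene that the hypoxia factor HIF-1 induces when oxygen is low, had 9.62 and 6.15 CPM in day 12 controls, 19.2 and 17.99 CPM in set-26(-) and 31.6 and 29.5 CPM in hcf-1(-). The order control, set-26(-), hcf-1(-) held in every library. The changes were 1.21 ± 0.26 (edgeR adjusted p = 0.0298) and 1.93 ± 0.26 (edgeR adjusted p = 0.00497). The hcf-1(-) call held without any 1 library, while the set-26(-) call was lost without control replicate 2 or either set-26(-) library, at adjusted p of 0.0796 to 0.170. The 3′ end of nhr-57 overlaps the start of lgc-1, on the same strand, by 75 bases. Reads in that stretch could be lost from the count of nhr-57 or belong to the other gene. nhr-210 was the member called higher in set-26(-) on all 3 days, with 13.99 and 17.9 CPM in day 12 controls against 44.3 and 36.1 CPM (1.32 ± 0.24, edgeR adjusted p = 0.0159). That call was lost without either set-26(-) library, at adjusted p of 0.0640 and 0.129, and in hcf-1(-), with 24.9 and 30.2 CPM, the change of 0.77 was not called (edgeR adjusted p = 0.09). nhr-214 had 1.59 and 2.46 CPM in the control and 5.32 and 8.13 CPM in set-26(-) (1.74 ± 0.38, edgeR adjusted p = 0.0348), and was lost without control replicate 1 or either set-26(-) library, at adjusted p of 0.0750 to 0.217.

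How the receptors change with age on EV was asked within each genotype. Between day 1 and day 12, 10 of the 158 members tested rose and 11 fell in the control, where 11.8% and 15% of all genes did. In set-26(-), 24 of 165 rose and 15 fell, against 20.9% and 21.1%, and in hcf-1(-) 21 of 170 rose and 15 fell, against 19.2% and 20.5%. The medians over members were 0.10, 0.16 and 0.13 in the 3 genotypes, and those over all genes 0.04, 0.01 and 0.00. nhr-18, nhr-61, nhr-103 and nhr-214 rose in all 3 genotypes, and nhr-68 and nhr-114 fell in all 3. These comparisons share no library, since each genotype had its own day 1 and day 12 samples.

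nhr-61 went from 9.87 and 10.6 CPM on day 1 to 65.3 and 77.6 CPM on day 12 in the control, from 29.6 and 12.7 to 111.3 and 100.3 CPM in set-26(-), and from 24.1 and 15.2 to 94.8 and 95.9 CPM in hcf-1(-). The changes were 2.76 ± 0.27 (edgeR adjusted p = 0.00231), 2.30 ± 0.35 (edgeR adjusted p = 0.00035) and 2.27 ± 0.24 (edgeR adjusted p = 1.73e-05). In each genotype every day 12 library lay above both day 1 libraries, which placed nhr-61 among the most abundant members in old worms. nhr-214 had no read in the day 1 control and hcf-1(-) libraries and 1 and 4 reads in those of set-26(-). Against a floor of 3 reads per library it was at least 3.52-fold higher on day 12 in the control and at least 13.4-fold higher in hcf-1(-), with 5.35 and 5.15 CPM there, and in set-26(-) it rose by 3.95 ± 0.61 (edgeR adjusted p = 0.000381). With the replicate block, which pairs day 12 with day 1 of the same number, the control call of nhr-214 was lost (adjusted p = 0.0656). It overlaps nhr-26 on the same strand by 73 bases.

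nhr-103 and nhr-18 are neighbours on chromosome V, on the same strand with 132 bases between them. nhr-18 went from 19.2 and 14.3 CPM to 50.1 and 51.0 CPM in the control, from 14.4 and 14.1 to 70.2 and 65.5 CPM in set-26(-) and from 22.5 and 17.2 to 38.7 and 61.4 CPM in hcf-1(-). Its changes were 1.56 ± 0.27 (edgeR adjusted p = 0.0102), 2.23 ± 0.24 (edgeR adjusted p = 3.18e-05) and 1.33 ± 0.26 (edgeR adjusted p = 0.00161). nhr-103 changed by 1.12 ± 0.32 (edgeR adjusted p = 0.048), 1.34 ± 0.28 (edgeR adjusted p = 0.0028) and 0.82 ± 0.28 (edgeR adjusted p = 0.0343). Day 1 and day 12 libraries did not overlap for nhr-18 in any genotype. The nhr-103 call was lost in the control without any 1 of the 4 libraries, at adjusted p of 0.0574 to 0.211, and with the replicate block (adjusted p = 0.0926), and in hcf-1(-) without day 1 replicate 2 or day 12 replicate 2, at 0.0777 and 0.267.

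nhr-68 and nhr-114 fell with age in every genotype, while nhr-10 was not called. nhr-68 came down to 2.78 and 0.956 CPM in day 12 controls, 5.75 and 4.93 CPM in set-26(-) and 4.18 and 5.67 CPM in hcf-1(-), changes of −3.91 ± 0.49 (edgeR adjusted p = 0.00399), −3.01 ± 0.26 (edgeR adjusted p = 7.87e-06) and −3.14 ± 0.28 (edgeR adjusted p = 4.5e-06). nhr-114 came down to 2.08 and 2.46 CPM, 3.05 and 3.46 CPM and 4.98 and 4.28 CPM, changes of −2.59 ± 0.42 (edgeR adjusted p = 0.00848), −2.14 ± 0.41 (edgeR adjusted p = 0.00158) and −1.95 ± 0.26 (edgeR adjusted p = 0.000112). All day 12 libraries lay below all day 1 libraries of the same genotype for both receptors, and these calls held without any 1 library. The target list fell too, with 6 of 8 tested genes lower and none higher in each genotype. Of all genes, 15%, 21.1% and 20.5% fell and 11.8%, 20.9% and 19.2% rose in the control, set-26(-) and hcf-1(-). acdh-1 had 1.19 and 0.410 CPM in day 12 controls, a change of −9.29. The intestinal marker sum was lower on day 12 as well, as given above. Of 4 intestinal markers tested, 1 rose and 2 fell in the control, and 3 fell and none rose in each mutant. All 4 muscle markers fell in each genotype, as did every hypodermal marker tested, 3 in the control, 3 in set-26(-) and 5 in hcf-1(-). Of 6 neuronal markers, 1 rose and 1 fell in the control, 2 and 1 in set-26(-), and 2 and none in hcf-1(-). The part of these markers in the changes was not tested.

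nhr-62, which is needed for the longer life of worms on a restricted diet, rose from 4.64 and 4.94 CPM to 27.7 and 19.9 CPM in the control (2.27 ± 0.33, edgeR adjusted p = 0.00616) and from 3.21 and 6.17 to 19.2 and 21.7 CPM in hcf-1(-) (2.09 ± 0.31, edgeR adjusted p = 0.000258). In set-26(-) it had 6.62 and 12.8 CPM on day 1 and 13.7 and 14.3 CPM on day 12 and was not called. nhr-57 rose in set-26(-) (1.55 ± 0.29, edgeR adjusted p = 0.00137) and hcf-1(-) (2.16 ± 0.25, edgeR adjusted p = 3.6e-05), while in the control its day 1 libraries were far apart, at 0.194 and 5.13 CPM, and the change of 1.52 was not called (edgeR adjusted p = 0.282). nhr-76, a regulator of fat storage, rose in set-26(-) (1.06 ± 0.31, edgeR adjusted p = 0.0191) and hcf-1(-) (1.67 ± 0.29, edgeR adjusted p = 0.000771). nhr-3 rose in the same mutants, by 2.47 ± 0.64 (edgeR adjusted p = 0.00937) and 2.94 ± 0.62 (edgeR adjusted p = 0.0025), and nhr-7 fell in them, with changes of −1.72 ± 0.27 (edgeR adjusted p = 0.000493) and −1.09 ± 0.25 (edgeR adjusted p = 0.00421). nhr-137 fell in set-26(-) (−1.76 ± 0.27, edgeR adjusted p = 0.000402), and the low-count members nhr-172 (24 and 16 reads on day 1, 16 and 1 on day 12) and nhr-273 (−1.66 ± 0.48, edgeR adjusted p = 0.0167) fell in hcf-1(-), each call being lost without 2 of its libraries, day 1 replicate 1 among them, at adjusted p of 0.0628 to 0.164. The set-26(-) calls of nhr-76 and nhr-3 were lost without 3 and 2 of the libraries left out, at adjusted p of 0.0820 to 0.221 and 0.0581 to 0.106, including each day 1 library.

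**Figure D4:**
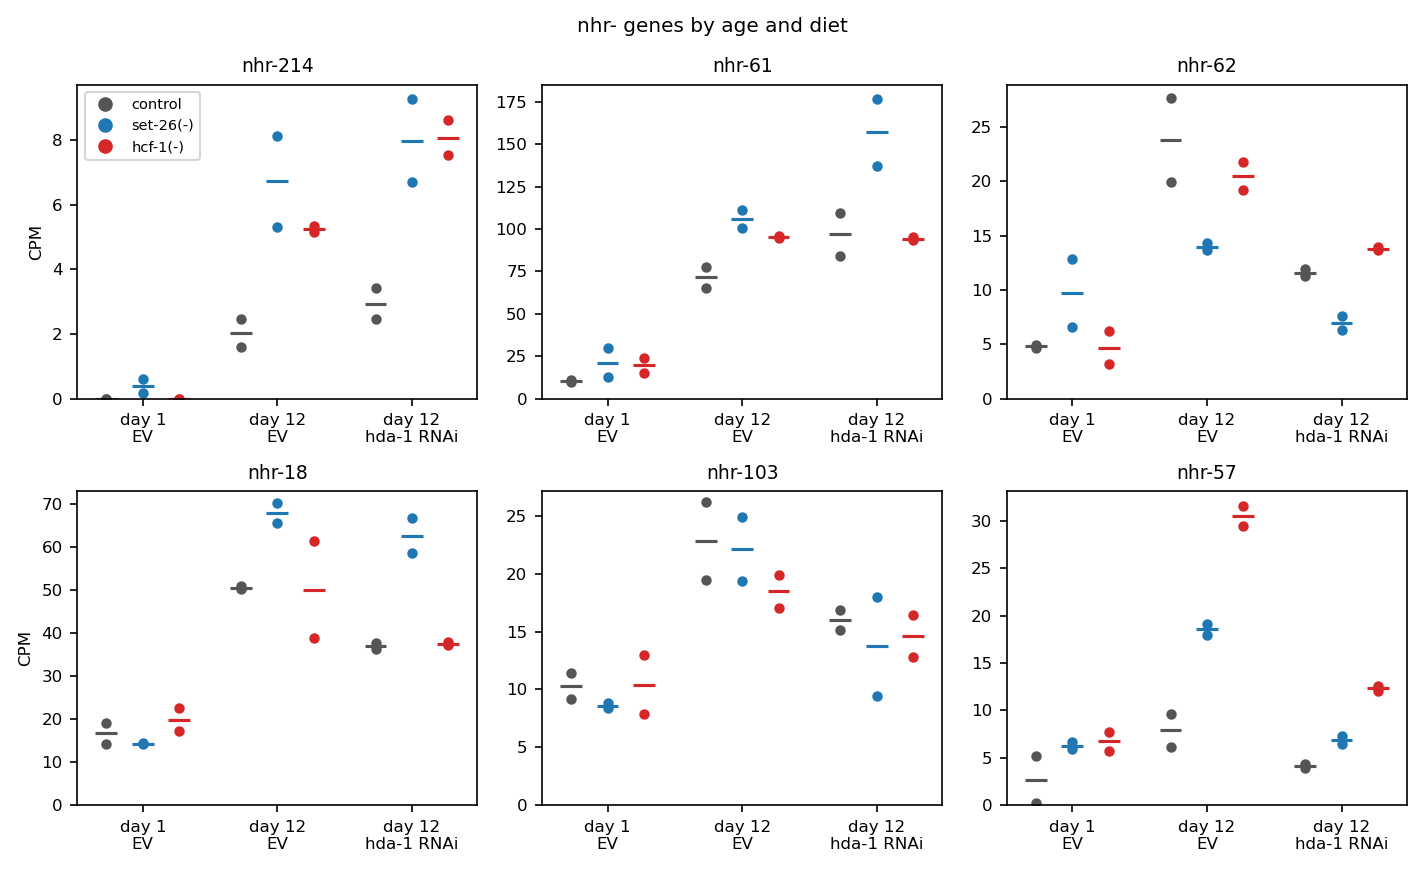
CPM (vertical axes, starting at 0) of nhr-214, nhr-61, nhr-62, nhr-18, nhr-103 and nhr-57 in the 3 genotypes on day 1 EV, day 12 EV and day 12 in libraries labelled hda-1 RNAi, with 1 point per library and a bar at the mean. Day 12 EV points lie above day 1 EV points of the same genotype for nhr-61 and nhr-18, and for nhr-62 and nhr-57 the day 12 points labelled hda-1 RNAi lie below those on EV, as in hcf-1(-) nhr-57 with 12.6 and 12.1 CPM against 31.6 and 29.5 CPM.

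nhr-55 and nhr-115, which separated both mutants from the control on day 1, were called with age in the control and in neither mutant. nhr-55 fell there to 14.4 and 9.97 CPM (−3.76 ± 0.31, edgeR adjusted p = 0.00147), next to 11.0 and 11.3 CPM in set-26(-) and 11.8 and 11.8 CPM in hcf-1(-), where the changes from day 1 were −0.29 and −0.35 and not called (edgeR adjusted p = 0.475 and 0.265). nhr-115 rose in the control to 14.9 and 16.4 CPM (2.60 ± 0.34, edgeR adjusted p = 0.00466), next to 22.5 and 23.1 CPM in set-26(-) and 16.8 and 19.5 CPM in hcf-1(-), where the changes were 0.08 and 0.56 (edgeR adjusted p = 0.824 and 0.0847). Both day 12 control libraries of nhr-115 lay inside the mutants' day 1 range of 11.4 to 23.9 CPM, as did 1 of the 2 for nhr-55, whose range was 10.7 to 16.1 CPM. nhr-226 rose in the control as well (2.30 ± 0.43, edgeR adjusted p = 0.0131), though not without day 12 replicate 2 (adjusted p = 0.0761), and nhr-99 (−2.45 ± 0.57, edgeR adjusted p = 0.0249), nhr-63 (−1.61 ± 0.39, edgeR adjusted p = 0.0279) and nhr-173 (−1.70 ± 0.26, edgeR adjusted p = 0.0075) fell. nhr-99 was lost without control day 12 replicate 2 (adjusted p = 0.0505), and nhr-63 without day 1 replicate 2 or either day 12 library (adjusted p = 0.0773 to 0.124).

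The difference between genotypes in the change from day 1 to day 12 was tested directly, in a fit added after the data had been seen. These tests, the day 1 differences between genotypes and the control's changes with age all use the same 2 day 1 control libraries, so they are not independent of each other. For set-26(-) against the control, 6 of 179 members had a higher and 6 a lower difference, where 4.74% and 2.49% of all genes did. For hcf-1(-) it was also 6 and 6, where the background was 5.67% and 3.74%. The difference was 3.47 for nhr-55 and −2.52 for nhr-115 in set-26(-), and 3.39 and −2.06 in hcf-1(-), and these 4 held without any 1 library. nhr-99 (3.29 and 2.60), nhr-63 (1.78 and 1.73) and nhr-226 (−2.47 and −2.26) were called in both mutants, and each was lost without at least 1 of the 8 libraries. From day 1 to day 3, nhr-55 and nhr-63 differed in set-26(-) and nhr-55 in hcf-1(-), so that 2 and 1 members were called with a higher difference (0.508% and 0.233% of all genes) and none with a lower one (0.227% and 0.35%). DESeq2 also called no member with a lower difference between day 1 and day 3, where 125 and 177 of 14562 genes were. An unadjusted p under 0.05 was found for 26 and 18 members in either direction.

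Within the control, day 3 was compared with day 1 too. No member of 153 was higher, where 4.32% of all genes were, and 2 were lower, nhr-55 and nhr-31, where 5.67% of all genes were. DESeq2 called 1 member higher (591 of 11217 genes), and 19 members in either direction had an unadjusted p under 0.05. nhr-55 fell by 2.32 ± 0.19 (edgeR adjusted p = 0.00438) and nhr-31 from 72.0 and 56.8 CPM to 32.1 and 31.2 CPM (−1.02 ± 0.22, edgeR adjusted p = 0.0377). Both genes had all day 3 libraries below all day 1 libraries. Both calls were lost without either day 3 library, at adjusted p of 0.0675 and 0.0751 for nhr-55 and 0.256 and 0.292 for nhr-31, and the replicate block left 1 call, since nhr-31 then had an adjusted p of 0.0646. nhr-31 fell by day 12 in set-26(-) (−1.19 ± 0.24, edgeR adjusted p = 0.00214) and hcf-1(-) (−0.94 ± 0.21, edgeR adjusted p = 0.00366).

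The effect of the hda-1 RNAi label was asked on day 12 in each genotype and as an average over the 3. In the control no member of 167 was called, where 0.911% of all genes were higher and 0.0772% lower. DESeq2 called none either, where it called 300 of 12951 genes higher and 57 lower, and 20 members had an unadjusted p under 0.05. In set-26(-) 1 of 169 was lower and none higher (0.294% and 0.918% of all genes), and in hcf-1(-) 4 of 178 were lower and 1 higher (1.26% and 4.12%). In set-26(-), DESeq2 called 2 lower and none higher (189 and 281 of 13283 genes), and 21 members had an unadjusted p under 0.05. Averaged over genotypes, 24 of 186 members were lower and 6 higher, where 5.71% and 10.4% of all genes were. The family's median was −0.12 and that of all genes 0.00. The average uses the libraries of every genotype, so its calls are not independent of those within a genotype.

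EV and RNAi cultures of 1 number came from the same day 1 population within a genotype, so each comparison was fitted again with that number as a block, and the counts over all genes rose as well. In the control that paired fit called 2 members higher and 12 lower, where 8.64% of all genes were higher and 4.32% lower. In set-26(-) it called 2 higher and 19 lower, where the background was 7.76% and 8.82%. In hcf-1(-) it called 10 higher and 19 lower, against 12.2% and 9.71%. For the average, 1 block over all 3 genotypes called 9 members higher and 31 lower, where 2082 and 1574 of 14836 genes were called. A block within each genotype, added after the data had been seen, called 14 members higher and 43 lower, where 16.5% and 14.5% of all genes were called. The interactions test whether the effect of the label differs between a mutant and the control. In edgeR neither called any of the 186 members or of all 14836 genes (0%), and 3 and 2 members had an unadjusted p under 0.05. DESeq2 called no member in either, but 22 genes in the set-26(-) and 15 in the hcf-1(-) interaction, and the block within genotype called 183 and 80 genes, again with no member among them.

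nhr-57 was the member with the smallest adjusted p. It had 9.62 and 6.15 CPM on EV and 3.91 and 4.34 CPM under the hda-1 RNAi label in the control, 19.2 and 17.99 against 6.48 and 7.29 CPM in set-26(-) and 31.6 and 29.5 against 12.6 and 12.1 CPM in hcf-1(-). All RNAi-labelled libraries lay below the EV libraries of their genotype. The change was −1.21 ± 0.14 on average (edgeR adjusted p = 0.000132), −1.27 ± 0.19 in hcf-1(-) (edgeR adjusted p = 0.00812), −1.40 ± 0.26 in set-26(-) (edgeR adjusted p = 0.04995) and −0.92 in the control (edgeR adjusted p = 0.357). The set-26(-) call was lost without any 1 of its 4 libraries, at adjusted p of 0.0520 to 0.157. The calls in hcf-1(-) and on average held without any 1 library.

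nhr-8 had 61.9 and 49.6 CPM on EV and 43.4 and 21.9 CPM under the hda-1 RNAi label in the control, 119.2 and 81.6 against 78.5 and 45.7 CPM in set-26(-) and 117 and 97.5 against 53.9 and 44.7 CPM in hcf-1(-). It fell by 0.84 ± 0.19 on average (edgeR adjusted p = 0.0108), and the change was −1.09 ± 0.19 in hcf-1(-) (edgeR adjusted p = 0.0149). nhr-62 had 27.7 and 19.9 against 11.2 and 11.9 CPM in the control, 13.7 and 14.3 against 6.28 and 7.57 CPM in set-26(-) and 19.2 and 21.7 against 13.6 and 13.9 CPM in hcf-1(-), and fell by 0.85 ± 0.13 on average (edgeR adjusted p = 0.000874). For both receptors the RNAi-labelled libraries lay below the EV libraries of their own genotype. nhr-106 (−1.15 ± 0.22, edgeR adjusted p = 0.0214) and nhr-177 (−0.87 ± 0.19, edgeR adjusted p = 0.0367) were lower and nhr-145 (1.22 ± 0.26, edgeR adjusted p = 0.0307) higher in hcf-1(-). The same members were called on average, which includes these hcf-1(-) libraries, at −0.77, −0.57 and 0.76. In hcf-1(-) these calls and that of nhr-8 were lost without EV replicate 1 or RNAi replicate 2, and those of nhr-145 and nhr-177 also without EV replicate 2, at adjusted p of 0.0520 to 0.216.

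On average, nhr-230 (−0.89 ± 0.24, edgeR adjusted p = 0.0259), nhr-76 (−0.88 ± 0.25, edgeR adjusted p = 0.0309) and nhr-226 (−0.86 ± 0.20, edgeR adjusted p = 0.0106) were also among the lower members. nhr-7 (0.58 ± 0.12, edgeR adjusted p = 0.00665), nhr-147 (1.18 ± 0.34, edgeR adjusted p = 0.0354), nhr-263 (1.201 ± 0.32, edgeR adjusted p = 0.024) and nhr-23 (0.99 ± 0.29, edgeR adjusted p = 0.0357) were among the higher ones. nhr-127 was called on few reads, with 0 or 1 read in every EV library and 1 to 25 reads in the RNAi-labelled ones, and it overlaps nhr-218 by 704 bases on the same strand. nhr-88, among the most abundant members, fell by 0.44 ± 0.11 (edgeR adjusted p = 0.015). The calls of nhr-7, nhr-8, nhr-57, nhr-62, nhr-98, nhr-106, nhr-109, nhr-145, nhr-177, nhr-204 and nhr-226 held without any 1 library. The other 19 were lost without at least 1 of the 12, at adjusted p of 0.0501 to 0.137, and each of the 12 libraries ended at least 1 call. Tissue markers also differed on average under the label. Of 9 germline markers tested, syp-1 (0.56 ± 0.15) and puf-5 (1.65 ± 0.17) were higher, of 4 intestinal markers ges-1 was lower (−0.88 ± 0.22), and elt-3 (0.49 ± 0.13) among 3 hypodermal and unc-119 (0.52 ± 0.14) among 6 neuronal markers were higher, while none of 4 muscle markers was called. The germline sum was 34.9 and 49.6 CPM on EV against 42.6 and 49.2 CPM under the label in the control, 34.3 and 35.98 against 71.0 and 57.9 CPM in set-26(-) and 25.5 and 23.6 against 39.3 and 39.1 CPM in hcf-1(-). The intestinal sum was 504 and 661 against 393 and 317 CPM in the control, 473 and 349 against 525 and 377 CPM in set-26(-) and 342 and 292 against 305 and 234 CPM in hcf-1(-). The part of these markers in the results for the receptors was not tested.

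**Figure D5:**
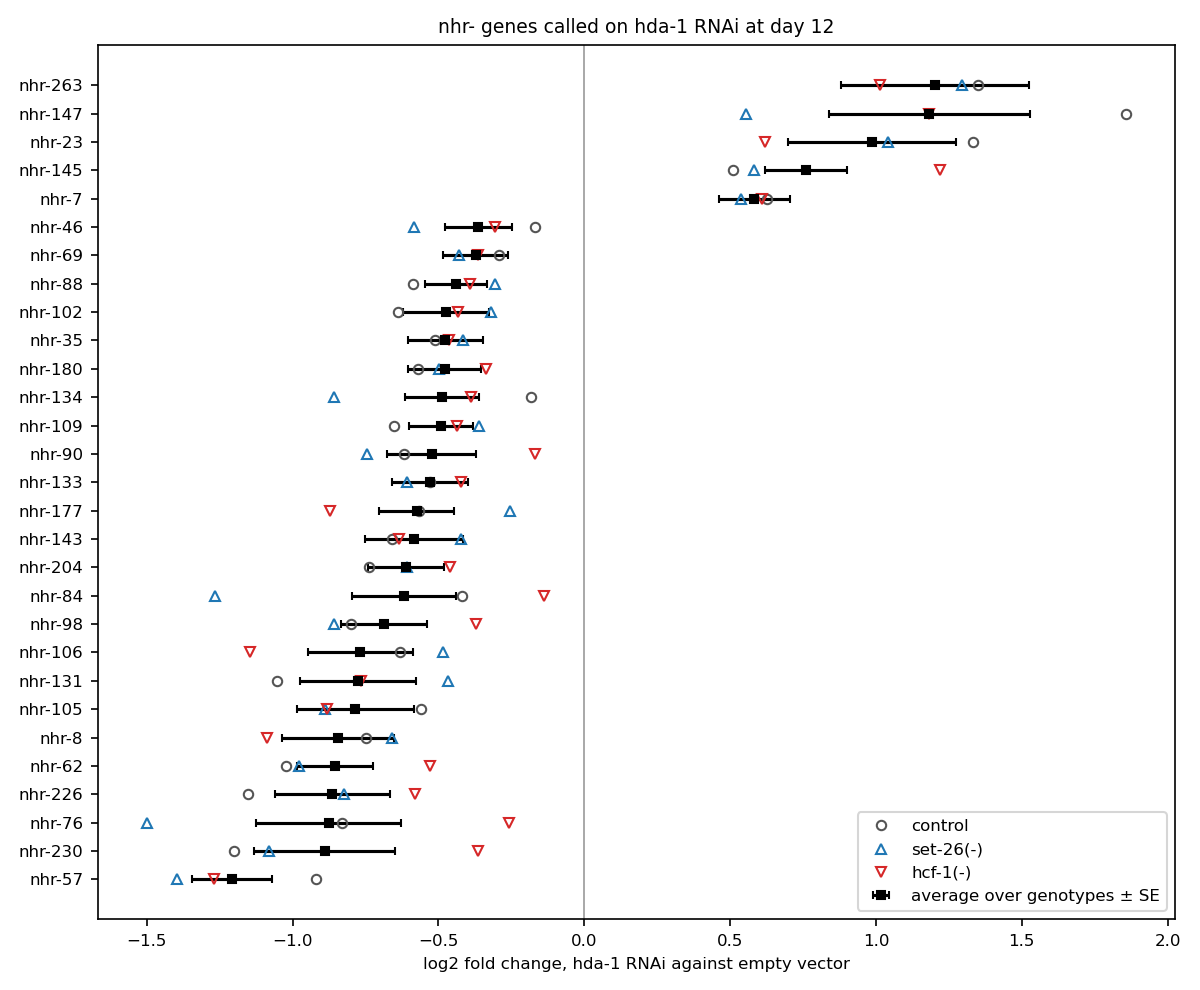
Log2 fold change of libraries labelled hda-1 RNAi against EV on day 12 (horizontal axis) for 29 of the 30 members called in the average over genotypes (nhr-127, at 0 or 1 read on EV, is not drawn). The average with its SE and the value in each genotype are drawn for each member, and 24 averages lie below 0, from −1.21 for nhr-57 to −0.36 for nhr-46.

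In several comparisons both members of a neighbouring pair were called. The 267 members formed 93 pairs with no other protein-coding gene between them, and 60 pairs had both members expressed, 46 of them on the same strand. In control worms between day 1 and day 12, 16 of 50 tested pairs had a member called and 4 had both, each in the same direction: nhr-99 with nhr-55, nhr-103 with nhr-18, nhr-115 with nhr-226 and nhr-173 with nhr-137. In set-26(-) both members were called in 3 of the 17 pairs with a call, and in hcf-1(-) in 1 of 14. On day 1 both were called in 1 of 9 such pairs in set-26(-) and in 3 of 8 in hcf-1(-), and in the average effect of the hda-1 RNAi label in 1 of 15 (nhr-102 with nhr-84). On day 3 it was 1 of 8 in set-26(-) and 0 of 4 in hcf-1(-). The hda-1 RNAi label in hcf-1(-) gave 0 of 3, and day 3 against day 1 in the control 0 of 2. No pair was called in opposite directions in these comparisons. The share over all neighbouring genes was not computed, and whether pairs share calls more often than other genes was not tested. Among the expressed members, 13 overlap a protein-coding gene on the same strand, and for these the counts of the 2 genes may not be fully separate.

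Lists of members with known roles were followed. Of 11 receptors with relatives outside nematodes, 9 met the read threshold. nhr-25 and nhr-111 did not, with at most 19 and 6 reads in a library. Between day 1 and day 12, none of them was called in the control and 1 of 8 tested rose in either mutant, which was nhr-91 in both (1.80 ± 0.40, edgeR adjusted p = 0.00388 in set-26(-), and 1.05 ± 0.29, edgeR adjusted p = 0.0125 in hcf-1(-), the latter lost without day 1 replicate 2 at 0.0831). nhr-23, the homologue of the ROR receptors and a driver of moulting, was the only one of them higher on average under the hda-1 RNAi label, at overlapping levels of 0.893 to 1.80 CPM on EV and 1.59 to 4.22 CPM under the label, and nhr-8 the only one lower. Of 13 receptors with metabolic roles, the control had 1 higher (nhr-62) and 2 lower (nhr-68 and nhr-114) on day 12 than on day 1, set-26(-) 2 higher and 3 lower, and hcf-1(-) 4 higher and 4 lower, where 11.8% and 15%, 20.9% and 21.1%, and 19.2% and 20.5% of all genes rose and fell. Between genotypes on day 1, 2 of the 13 were lower and none higher in hcf-1(-), against 5.84% and 7.76% of all genes. None was called in set-26(-) on day 1, against 4.19% lower and 4.45% higher. On average 3 of the 13 were lower under the hda-1 RNAi label, which were nhr-62, nhr-69 and nhr-76, and none was higher, against 5.71% of all genes lower and 10.4% higher. Of 4 receptors of stress and toxin responses, nhr-8 and nhr-57 were called as above, nhr-86 rose with age in hcf-1(-) (1.19 ± 0.36, edgeR adjusted p = 0.0204, lost without replicate 2 of day 1 or day 12 at 0.101 and 0.105) and nhr-176, a receptor for thiabendazole, was not called. cyp-35D1, a target of NHR-176, was higher on average under the hda-1 RNAi label (1.76 ± 0.25, edgeR adjusted p = 0.000642).

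Partners of the family outside the nhr- names were compared as well. daf-12, the receptor for the steroid hormones called dafachronic acids, rose between day 1 and day 12 in set-26(-) (0.95 ± 0.22, edgeR adjusted p = 0.00531) and hcf-1(-) (0.77 ± 0.19, edgeR adjusted p = 0.00683). daf-36, whose enzyme acts at the start of the synthesis of that hormone, fell with age in all 3 genotypes, with changes of −3.16, −1.44 and −2.07 in the control, set-26(-) and hcf-1(-), and was higher on average under the hda-1 RNAi label (1.08 ± 0.21, edgeR adjusted p = 0.00475). daf-9, whose enzyme acts at its end, was higher in set-26(-) on day 1 (2.05 ± 0.52, edgeR adjusted p = 0.0475) and fell with age in set-26(-) (−1.35) and hcf-1(-) (−1.18). mdt-15, the Mediator subunit that several of these receptors use, rose with age in set-26(-) (0.88 ± 0.22, edgeR adjusted p = 0.00797) and hcf-1(-) (1.00 ± 0.21, edgeR adjusted p = 0.00262). The age calls of daf-12, daf-36 and mdt-15 held without any 1 library, while those of daf-9 were lost without 3 of 4 libraries in set-26(-) (day 1 replicate 1 and both of day 12) and without each of 4 in hcf-1(-), at adjusted p of 0.0585 to 0.238, and its day 1 call without either control or set-26(-) replicate 1, at 0.0530 to 0.276.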

How the data were processed

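The authors trimmed single-end reads with Trim Galore 0.6.5, aligned them with STAR 2.7.9a to the ce11 (WBcel235) genome and deposited raw, strand-specific counts of uniquely mapped reads per gene in 1 table. From these counts, symbols were matched to gene identifiers and positions taken from the Ensembl WBcel235 annotation. The members and lists were chosen with earlier results of these data known. Genes with more than 10 reads in at least 2 of a comparison's libraries were fitted with edgeR 4.0.16 in R 4.3.3 (limma 3.58.1; TMM within the comparison, glmQLFit and glmQLFTest), and p-values were adjusted over all genes tested. CPM values were TMM-normalized over all 30 libraries. The step was tested on simulated data. Members named with values were, in each comparison, up to 4 higher and 4 lower with the largest changes among called members with a mean of 20 reads whose libraries did not overlap between the groups (not asked of the average and the interactions), the 10 most abundant, and listed members. Others named (such as nhr-7, nhr-18, nhr-95, nhr-101, nhr-103 and nhr-127) were chosen after their values were seen. Alternatives were DESeq2 1.42.0, DESeq2 size factors, no filter, a replicate block, 1 fit of all 30 libraries and leaving out each library. Same-numbered hda-1 RNAi and EV samples share a day 1 population according to the study's methods, and their deviations correlated at 0.422, 0.432 and 0.323 in control, set-26(-) and hcf-1(-), whereas those of day 12 and day 1 correlated at 0.004 to 0.051. CPM intervals were not computed, and floors cover counting error only.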

Additional observations from a re-analysis of the deposited data

Results flagged for a closer look

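The test of whether the change since day 1 differed between a mutant and the control singled out the following members, each given as the log2 change in the mutant minus that in the control. Between day 1 and day 3, the difference was 2.7004 for nhr-55 and 1.95 for nhr-63 in set-26(-), and 2.76 for nhr-55 in hcf-1(-). Between day 1 and day 12 in set-26(-), it was above 0 for nhr-55 (3.47), nhr-99 (3.29), nhr-202 (2.17), nhr-63 (1.78), nhr-45 (1.21) and nhr-184 (1.13). It was below 0 for nhr-115 (−2.52), nhr-226 (−2.47), nhr-178 (−2.13), nhr-7 (−1.70), nhr-193 (−1.54) and nhr-79 (−1.27). In hcf-1(-), it was above 0 for nhr-55 (3.39), nhr-99 (2.60), nhr-63 (1.73), nhr-14 (1.17), nhr-173 (1.15) and nhr-1 (1.08). It was below 0 for nhr-226 (−2.26), nhr-115 (−2.06), nhr-210 (−1.42), nhr-213 (−1.38), nhr-101 (−1.13) and nhr-79 (−1.03). Both mutants share the control libraries, and the calls of nhr-55 and nhr-115 held without any 1 of the 8 libraries. nhr-202 overlaps nhr-201 on the same strand by 136 bases.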

How the results depend on the processing

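None of the 188 calls of members reversed. Of these, 160 were kept by DESeq2, 184 with DESeq2 size factors, 172 without the filter, 164 in 1 fit of all 30 libraries, and 181 with the replicate block, and calls were kept in 581 of the 974 refits that left out 1 library. With no filter the counts of members called moved from 13 to 21 (set-26(-), day 1), 14 to 22 (hcf-1(-), day 1), 3 to 7 and 1 to 8 (set-26(-) and hcf-1(-), day 12), and 0 to 3, 1 to 8 and 5 to 11 (hda-1 RNAi label in control, set-26(-) and hcf-1(-)). In 1 fit of all libraries they moved to 27 and 28 (day 1), from 10 to 4 (hcf-1(-), day 3), to 5 and 5 (day 12), to 1 and 2 (hda-1 RNAi label, control and set-26(-)), from 21 to 48 (control, day 12 against day 1) and from 2 to 16 (control, day 3 against day 1). DESeq2 called 5 and 2 (set-26(-) and hcf-1(-), day 12), 2 (hda-1 RNAi label, set-26(-)) and 6 (day 3 against day 1), and DESeq2 size factors gave 0 for the hda-1 RNAi label in set-26(-). The counts over all genes moved too, in set-26(-) on day 1 from 1069 to 2290 with no filter and 2558 in 1 fit, and over the comparisons to 0.872 to 9.88 times with no filter, 0.629 to 5.10 times in 1 fit and 0.871 to 4.52 times with DESeq2. The cause of these shifts was not tested. With the replicate block the counts were 14, 21 and 29 (hda-1 RNAi label), 57 (their average, block within genotype, added after the data were seen), 5 and 5 (mutants, day 12) and 1 (day 3 against day 1), and no other count moved by over 1.5 times; same-numbered mutant and control samples share only a number. In the added tests between day 1 and day 3, counts of 2 and 1 became 1 with DESeq2 size factors and 4 with no filter in set-26(-), and 2 with DESeq2 and 4 with no filter in hcf-1(-). Leaving out 1 library gave 3 to 10 and 3 to 11 calls on day 1 (set-26(-), hcf-1(-)), 6 to 10 and 2 to 10 on day 3, 0 to 7 and 1 to 10 on day 12, 0 to 0, 0 to 1 and 1 to 6 for the hda-1 RNAi label, 16 to 33 for its average, 0 to 0 for the interactions, 9 to 19, 19 to 28 and 25 to 32 for age, 0 to 15 for day 3 against day 1, and 1 to 3, 1 to 3, 3 to 13 and 3 to 13 for the added tests. With 2 libraries a group, a call near the threshold depends on each library, and 28 members were under 1 CPM in day 1 controls, near the floor of 3 reads.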
